A study of Homo sapiens with 8 samples.

Results

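The 10 genes described here encode 1 main isoform for nearly every step of glycolysis through to lactate. They are HK2, PFKP, ALDOA, TPI1, GAPDH, PGK1, PGAM1, ENO1, PKM and LDHA, chosen by symbol from the 15597 genes listed in every library, and all 10 were found. The isomerase GPI and the other isoforms of these enzymes are treated beside them. RNA of SUDHL-4, an established lymphoma line of large B cells with a germinal-centre profile, was sequenced in 8 libraries. The 4 groups, of 2 libraries each, were FDX1-overexpressing (FDX1-OE) cells with elesclomol (ES), FDX1-OE cells with DMSO, control cells with ES and control cells with DMSO. Control cells carry the genotype label WT. ES was given at 5 nM, and every culture was sampled at 48 h. FDX1 encodes the mitochondrial ferredoxin that acts in protein lipoylation, and elesclomol carries copper into cells. The labels do not say how FDX1 was overexpressed, whether the control cells received an empty vector, or whether the FDX1-OE cells are 1 clone.

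Glycolysis turns glucose into pyruvate in the cytosol. Its upper part spends ATP to phosphorylate and split the sugar, its lower part regains ATP and makes NADH, and lactate dehydrogenase then uses that NADH to reduce pyruvate to lactate. In B-cell lymphoma lines, as in other fast-growing cells, much of the glucose taken up leaves as lactate, and the genes of the pathway are textbook targets of HIF1A and MYC.

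A RefSeq promoter window is shown for each of LDHA, GAPDH and PGK1, 3 of the 9 members that fell with ES in FDX1-OE cells. A window of ALDOC, the aldolase isoform that moved in the opposite direction, is shown beside them. HIF1A binds ACGTG or GCGTG, the core of the hypoxia response element, and MYC binds the E-box CACGTG. Capitals mark these letters on either strand, so that CACGT and CACGC are the cores read on the opposite strand, and every CACGTG also holds ACGTG on both strands. The windows are 300 bases about a start site in RefSeq, most of them upstream of it, and are given 5′ to 3′ on the gene's strand, with coordinates of GRCh38.p14. LDHA lies at chr11:18394313-18394612 on the plus strand, GAPDH at chr12:6535014-6535313 on the plus strand, PGK1 at chrX:78103998-78104297 on the plus strand and ALDOC at chr17:28576846-28577145 on the minus strand.
LDHA: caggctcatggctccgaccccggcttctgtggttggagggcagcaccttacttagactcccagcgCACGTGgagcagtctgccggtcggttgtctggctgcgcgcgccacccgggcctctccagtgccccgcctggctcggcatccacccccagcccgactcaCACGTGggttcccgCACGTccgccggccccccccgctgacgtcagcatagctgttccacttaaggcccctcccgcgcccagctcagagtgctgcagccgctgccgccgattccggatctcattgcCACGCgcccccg
GAPDH: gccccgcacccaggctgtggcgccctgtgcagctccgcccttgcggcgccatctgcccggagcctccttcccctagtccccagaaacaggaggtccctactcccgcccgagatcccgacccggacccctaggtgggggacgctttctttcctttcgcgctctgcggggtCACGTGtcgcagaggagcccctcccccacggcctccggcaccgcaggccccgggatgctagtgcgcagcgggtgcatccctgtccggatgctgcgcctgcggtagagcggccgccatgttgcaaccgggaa
PGK1: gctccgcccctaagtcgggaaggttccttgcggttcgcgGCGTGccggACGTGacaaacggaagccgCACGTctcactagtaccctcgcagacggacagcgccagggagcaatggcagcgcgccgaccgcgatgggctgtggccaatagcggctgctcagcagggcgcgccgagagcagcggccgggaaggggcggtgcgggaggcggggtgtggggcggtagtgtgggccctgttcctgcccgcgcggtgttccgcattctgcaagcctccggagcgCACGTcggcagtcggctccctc
ALDOC: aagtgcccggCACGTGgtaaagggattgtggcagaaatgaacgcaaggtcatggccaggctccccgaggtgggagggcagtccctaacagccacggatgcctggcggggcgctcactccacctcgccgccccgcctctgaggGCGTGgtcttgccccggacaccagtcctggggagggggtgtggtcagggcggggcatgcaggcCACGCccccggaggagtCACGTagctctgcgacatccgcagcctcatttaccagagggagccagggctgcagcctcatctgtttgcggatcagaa

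RefSeq gives a further LDHA window, at chr11:18396101-18396400 on the plus strand, which held 1 match to GCGTG and none to ACGTG or CACGTG. The LDHA window shown held 5 matches to ACGTG, 1 to GCGTG and 2 to CACGTG, counting both strands. The GAPDH window held 1 CACGTG, which gives its 2 matches to ACGTG, and none to GCGTG. PGK1 had 3 matches to ACGTG and 1 to GCGTG. ALDOC, whose level moved the opposite way, had 3 matches to ACGTG, 2 to GCGTG and 1 to CACGTG. RefSeq gave 18 windows for the 10 members. ACGTG lay in 10 of them (55.6%), from 7 members, and in 24.1% of the 17954 windows of genes listed in these libraries. For GCGTG the figures were 9 of 18 windows (50.0%) and 45.4% of all windows, and for CACGTG 4 of 18 (22.2%), in ALDOA, GAPDH, HK2 and LDHA, and 8.8%. TGACG, a core motif of the cyclic AMP response element, lay in 5 of 18 member windows (27.8%) and in 29.6% of all windows. The 3 members shown all had ACGTG. Of the fallen members not shown, HK2, PFKP and TPI1 also had it in at least 1 window. The windows of ENO1 and PKM had no match to ACGTG or CACGTG, and that of PGAM1 had none to any of these motifs. These matches describe the letters of these windows alone, and which start sites these cells use was not tested.

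Levels are given in FPKM, fragments or reads scaled by gene length and by the library total, as the authors deposited them. FPKM is a share of each library, so every difference below is relative to the other transcripts of that library. Every log2 change below is of FPKM + 1, which makes the changes of genes with few FPKM smaller than those of FPKM itself. The library totals were 33435438 to 35883528 reads, and the members other than ALDOA had between 4037 and 293284 reads in a library. FDX1 itself had 82.5 and 84.8 FPKM in FDX1-OE ES libraries, 72.4 and 69.9 in FDX1-OE DMSO libraries, 21.3 and 21.4 in control ES libraries, and 25.6 and 22.2 in control DMSO libraries. Every FDX1-OE library thus lay above every control library. All 6 B-cell markers and all 6 germinal-centre markers had at least 1 FPKM in every library. Of 7 myeloid markers, CD68 and FCER1G were above 1 FPKM in every library, while the sum of the 7 was 36.7 to 39.7 FPKM in FDX1-OE ES, 7.07 to 8.18 in FDX1-OE DMSO, 12.3 to 16.5 in control ES and 4.03 to 4.30 in control DMSO libraries. The myeloid markers other than CD68 and FCER1G reached at most 0.280 FPKM in any library. Of 4 T-cell and NK-cell markers listed, CD3E alone was above 1 FPKM, at 3.91 to 8.32 over all libraries. CD3D, CD3G and NKG7 reached at most 0.0345, 0.0103 and 0.231 FPKM. None of 6 epithelial and stromal markers and neither of 2 erythroid markers reached 1 FPKM in every library. VIM had 1.31 to 1.59 FPKM in FDX1-OE ES, 1.08 to 1.19 in FDX1-OE DMSO, 1.27 to 1.34 in control ES and 0.801 to 0.868 in control DMSO libraries. The other epithelial and stromal markers reached at most 0.318 FPKM, and HBB reached 0.870, both in FDX1-OE ES libraries. The part of these markers in the results was not tested.

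The 10 enzymes together made up 1.69% of all FPKM in both FDX1-OE ES libraries, 2.21% and 2.22% in FDX1-OE DMSO libraries, 2.01% and 2.09% in control ES libraries, and 2.17% and 2.20% in control DMSO libraries. Both FDX1-OE ES libraries lay below all the others, both control ES libraries lay between them and the 4 DMSO libraries, and the DMSO libraries of both kinds of cell lay between 2.17% and 2.22%. GAPDH alone held 64.3 to 66.3% of the members' FPKM. Without it both FDX1-OE ES libraries again lay lowest and both control ES libraries between them and the DMSO libraries, with 0.581% and 0.578% of all FPKM in FDX1-OE ES libraries, 0.767% and 0.769% in FDX1-OE DMSO, 0.684% and 0.705% in control ES, and 0.774% and 0.776% in control DMSO. Counted as reads rather than per length, the mean share was 1.25% in FDX1-OE ES, 1.65% in FDX1-OE DMSO, 1.51% in control ES and 1.66% in control DMSO libraries.

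**Figure D1:**
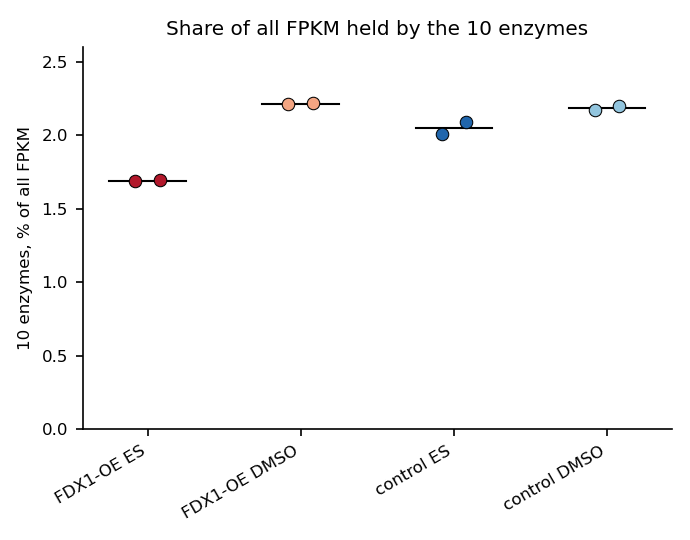
Percent of all FPKM held by the 10 glycolytic enzymes in each library (vertical axis, from 0), with 2 points per group and a line at the group mean. Both FDX1-OE ES libraries are at 1.69%, below the control ES libraries at 2.01% and 2.09% and the 4 DMSO libraries.

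Per length, the members spanned a wide range. By its mean over the libraries GAPDH ranked 3 among the 15597 genes, PKM 74, TPI1 75, LDHA 94 and ENO1 104. PGAM1 ranked 277, PGK1 805, PFKP 1077 and HK2 2422, so TPI1 and the listed enzymes of the lower part each ranked above HK2 and PFKP. These ranks are of single isoforms and not of whole steps. In control DMSO libraries PFKL and PFKM had means of 51.7 and 52.3 FPKM, beside 71.4 for PFKP and 101 for PGK1. The mean of HK1 there was 31.1 FPKM, beside 35.5 for HK2. The order GAPDH, then PKM and TPI1, then LDHA and ENO1, then PGAM1, PGK1, PFKP, HK2 and ALDOA held in all 4 groups. PKM and TPI1 changed places between groups: TPI1 had the higher mean in both ES groups and PKM in both DMSO groups, and their libraries overlapped in every group but FDX1-OE DMSO. LDHA and ENO1 overlapped in FDX1-OE ES libraries and in no other group.

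**Figure D2:**
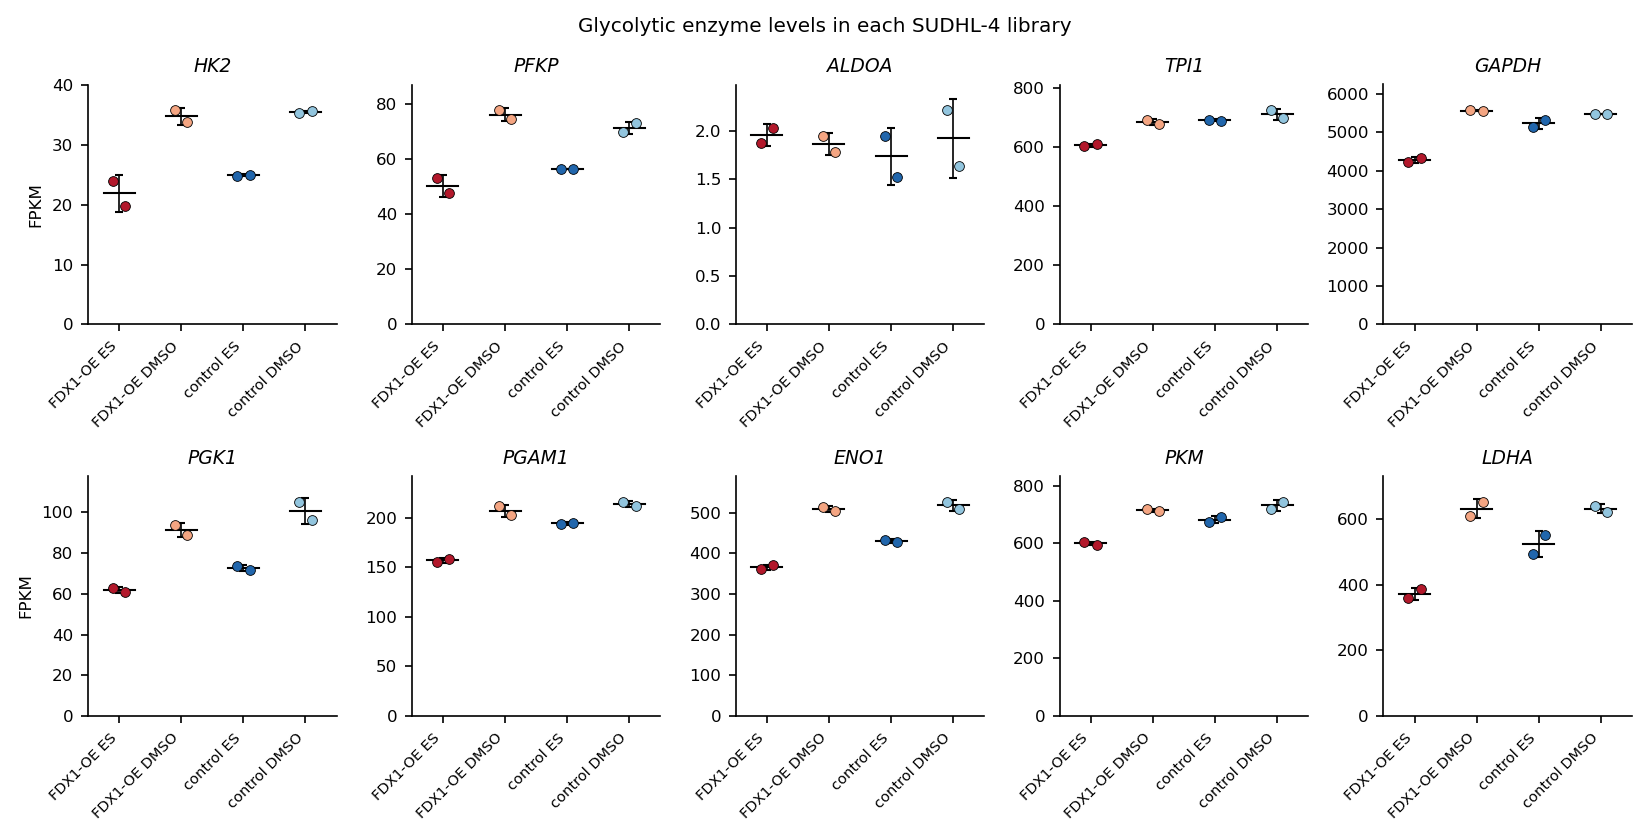
FPKM of each enzyme (vertical axes, from 0) in the 2 libraries of each group, with the group mean as a line and its SD as error bars. For the 9 enzymes other than ALDOA both ES libraries lie below both DMSO libraries in each kind of cell, while the groups of ALDOA overlap.

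HK2, the hexokinase that traps glucose in the cell as its phosphate, had 24.0 and 19.7 FPKM in FDX1-OE ES libraries, 35.8 and 33.7 in FDX1-OE DMSO, 24.8 and 25.0 in control ES, and 35.4 and 35.6 in control DMSO. All 4 ES libraries were below all 4 DMSO libraries, and within a treatment the 2 kinds of cell were close. PFKP, the platelet-type phosphofructokinase of the committed step, had 53.3 and 47.6 FPKM in FDX1-OE ES libraries, 77.8 and 74.6 in FDX1-OE DMSO, 56.6 and 56.6 in control ES, and 69.9 and 73.0 in control DMSO. It showed the same separation of ES from DMSO libraries. HK2 and PFKP were each other's nearest member in pattern, with a root mean square difference of 0.078 between their centred log2(FPKM + 1) values over the 8 libraries.

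ALDOA, the aldolase that splits the phosphorylated hexose, was listed at 1.88 and 2.03 FPKM in FDX1-OE ES libraries, 1.94 and 1.78 in FDX1-OE DMSO, 1.95 and 1.52 in control ES, and 2.21 and 1.64 in control DMSO. All 4 groups overlapped, and the values rest on 111 to 165 reads. It ranked 8778 of 15597 genes, far below every other member. In GENCODE 29 (GRCh38), 42.3% of the exonic bases of ALDOA are shared with a protein-coding read-through gene on the same strand, and 53.5% with a gene on either strand. That read-through gene is listed in the files as LOC112694756, at 1.25 and 0.842 FPKM in FDX1-OE ES libraries, 0.342 and 0.116 in FDX1-OE DMSO, 0.861 and 0.609 in control ES, and 0.521 and 0.360 in control DMSO. The sources used here do not give how reads in shared exons were counted. The part of the overlap in the level of ALDOA was not tested, and its values are uncertain. For the other members at most 2.5% of exonic bases are shared with a gene on the same strand. Counting either strand, the share is 14.2% for GAPDH and again at most 2.5% for the rest.

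TPI1, which interconverts the triose phosphates, had 604 and 611 FPKM in FDX1-OE ES libraries, 694 and 678 in FDX1-OE DMSO, 694 and 690.0 in control ES, and 726 and 699 in control DMSO. The FDX1-OE ES libraries stood below the other 6, whose values lay between 678 and 726. GAPDH, the dehydrogenase that makes the NADH of glycolysis, had 4227 and 4343 FPKM in FDX1-OE ES libraries, 5576 and 5551 in FDX1-OE DMSO, 5132 and 5333 in control ES, and 5487 and 5482 in control DMSO. Its control ES libraries were just below the DMSO libraries and its FDX1-OE ES libraries well below them. GAPDH and PGAM1 were the closest pair of members over the 8 libraries, with a root mean square difference of 0.0391, and TPI1 and PKM came next at 0.0469.

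PGK1, which carries out the first ATP-making step, had 62.8 and 60.7 FPKM in FDX1-OE ES libraries, 94.0 and 88.8 in FDX1-OE DMSO, 73.9 and 71.8 in control ES, and 105 and 96.3 in control DMSO. The 4 groups stood apart from one another, with the FDX1-OE ES libraries lowest and the control DMSO libraries highest. PGAM1, the mutase that moves the phosphate on the triose acid, had 155 and 159 FPKM in FDX1-OE ES libraries, 211 and 202 in FDX1-OE DMSO, 193 and 195 in control ES, and 216 and 212 in control DMSO. Its control ES libraries lay between the FDX1-OE ES and the DMSO libraries.

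ENO1, the enolase, had 360.5 and 370.2 FPKM in FDX1-OE ES libraries, 514 and 504 in FDX1-OE DMSO, 434 and 427 in control ES, and 527 and 509 in control DMSO. The ES groups were apart from each other and from the DMSO groups. PKM, the pyruvate kinase that makes ATP and pyruvate, had 604 and 595 FPKM in FDX1-OE ES libraries, 718 and 711 in FDX1-OE DMSO, 673 and 692 in control ES, and 718 and 744 in control DMSO. Its FDX1-OE ES libraries were lowest, its control ES libraries came next, and FPKM per gene does not part the spliced forms of PKM.

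LDHA, the dehydrogenase subunit that favours lactate formation, had 360.0 and 386 FPKM in FDX1-OE ES libraries, 611 and 654 in FDX1-OE DMSO, 495 and 552 in control ES, and 642 and 622 in control DMSO. It had the widest range of group means among the members, 0.76 on the log2 scale. The member nearest to it in pattern was ENO1, at a root mean square difference of 0.128.

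In FDX1-OE cells, 9 of the 10 enzymes fell with ES relative to DMSO and none rose. LDHA fell the most, to 0.59 of its DMSO level, followed by HK2 at 0.64, PFKP at 0.67, PGK1 at 0.68 and ENO1 at 0.72. PGAM1 was at 0.76, GAPDH at 0.77, PKM at 0.84 and TPI1 at 0.89 of the DMSO level, on the scale of FPKM + 1. Of the 9805 genes tested, 19.2% were lower and 37.0% higher at an adjusted p below 0.05. Among the 3358 tested genes with a mean of at least 20 FPKM, a limit chosen after the values were seen and passed by every member but ALDOA, 33.8% were lower and 24.9% higher. The median log2 change was -0.44 over the members and 0.09 over all genes tested. In cultures analysed as a whole, fewer cells with a transcript and less of it in each cell cannot be told apart.

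In limma's test with Benjamini-Hochberg adjustment over all genes tested, the log2 change of LDHA was -0.76 ± 0.06 (SE), with an adjusted p of 5.13e-06. For HK2 it was -0.65 ± 0.08 (adjusted p = 7.28e-05), for PFKP -0.59 ± 0.06 (2.38e-05) and for PGK1 -0.56 ± 0.06 (2.33e-05), all from limma with 2 libraries per group. Those of ENO1, PGAM1 and GAPDH were -0.48, -0.40 and -0.38, each with an SE of 0.04 or 0.05. PKM at -0.25 (adjusted p = 0.000687, limma) and TPI1 at -0.18 (0.00609) were the smallest called changes, and ALDOA was at 0.05 with a 95% interval of -0.21 to 0.30. In all 9 called members the ES and DMSO libraries did not overlap. Without FDX1-OE DMSO replicate 1 the count was 8, since TPI1 then had an adjusted p of 0.0622 (limma). As deposited, 3632 genes were higher and 1878 lower. Scaling each library by the median ratio of its genes (RLE scaling) gave 2354 higher and 3107 lower, with a median log2 change of -0.03 over all genes, and again 9 members lower.

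**Figure D3:**
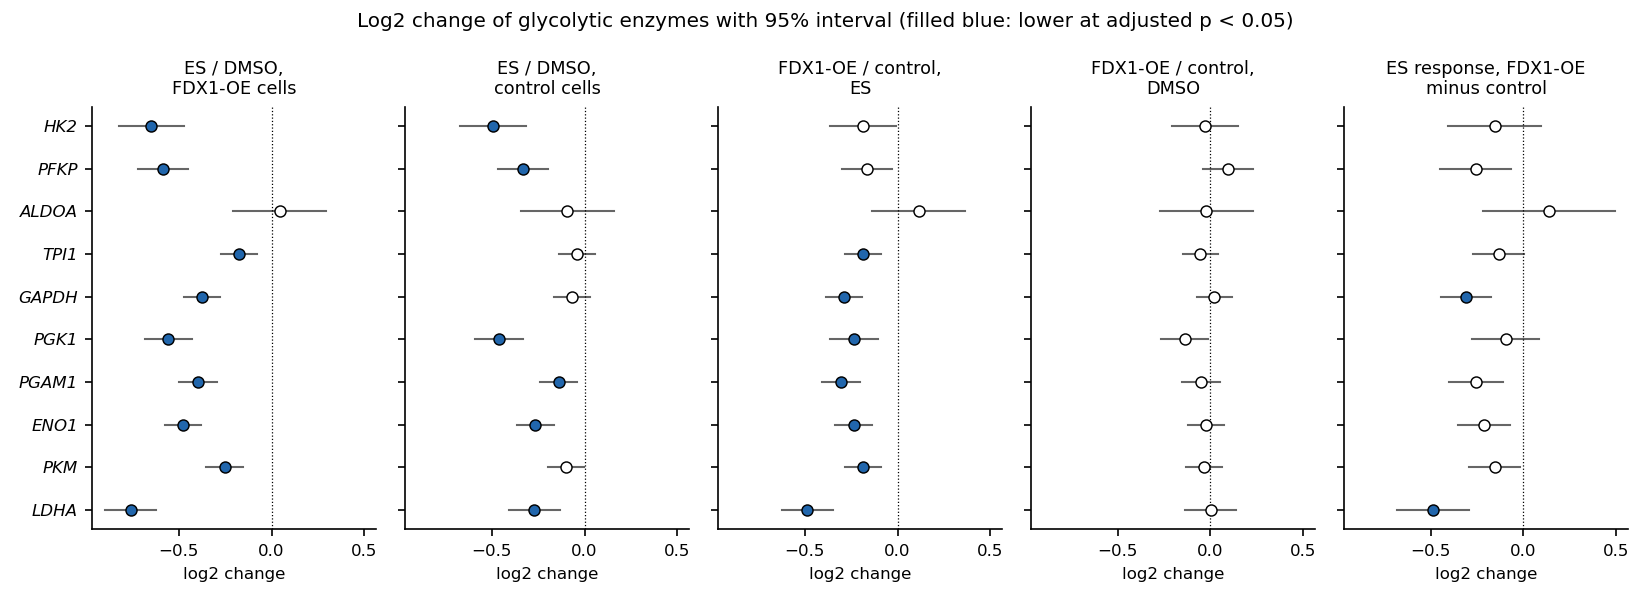
Log2 change of FPKM + 1 (horizontal axes) for each enzyme in the 4 comparisons and in the difference of the ES responses, with 95% intervals from limma; filled blue points are lower at an adjusted p below 0.05 and white points were not called. The FDX1-OE panel has 9 blue points, the control panel 6, the comparison of cells in ES 7, that in DMSO none and the difference of responses 2.

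In control cells, 6 of the 10 enzymes fell with ES relative to DMSO and none rose. HK2 and PGK1 fell the most, to 0.71 and 0.73 of their DMSO level, then PFKP to 0.80, LDHA and ENO1 to 0.83 and PGAM1 to 0.91. PKM, GAPDH, TPI1 and ALDOA did not pass the test, with log2 changes of -0.10, -0.07, -0.04 and -0.09, although the ES and DMSO libraries of the first 3 did not overlap. Of all genes tested 12.9% were lower and 25.5% higher, and among those with a mean of at least 20 FPKM 23.4% were lower and 20.9% higher. The median log2 change was -0.20 over the members and 0.06 over all genes.

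The log2 change in control cells was -0.49 ± 0.08 (SE) for HK2, with an adjusted p of 0.00103 by limma, and -0.46 ± 0.06 for PGK1 (adjusted p = 0.000256, limma). PFKP was at -0.33 ± 0.06 (adjusted p = 0.00214, limma), LDHA at -0.27 ± 0.06 (0.00652) and ENO1 at -0.27 ± 0.04 (0.00128). PGAM1, at -0.14, was near the threshold, with an adjusted p of 0.0345 by limma. Its call was lost without FDX1-OE DMSO replicate 1 or 2 (adjusted p = 0.0548 each, limma), control ES replicate 1 or 2 (0.118 and 0.0858) or control DMSO replicate 1 or 2 (0.138 and 0.0789). That of LDHA was lost without control ES replicate 1 (0.0555), and leaving out 1 library in turn gave between 4 and 6 members lower. With RLE scaling 9 members were lower, GAPDH, PKM and TPI1 being added with adjusted p-values of 0.0167, 0.00807 and 0.0375 (limma), while all genes went to 1682 higher and 2124 lower, beside 2498 and 1269 as deposited. The median of all genes with that scaling was -0.01.

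In ES, 7 of the 10 enzymes were lower in FDX1-OE than in control cells and none was higher. LDHA was at 0.71 of the control level, PGAM1 at 0.81, GAPDH at 0.82, PGK1 and ENO1 at 0.85, and TPI1 and PKM at 0.88. The entry kinases HK2 and PFKP, at 0.88 and 0.89, did not pass the test, with limma adjusted p-values of 0.122 and 0.0791. Among all genes 7.78% were lower and 13.6% higher, and among those with a mean of at least 20 FPKM 16.6% were lower and 9.02% higher. The median log2 change was -0.21 over the members and 0.03 over all genes.

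For LDHA the log2 difference in ES was -0.49 ± 0.06 (SE), with an adjusted p of 0.000684 by limma, for PGAM1 -0.31 ± 0.05 (0.00177) and for GAPDH -0.29 ± 0.04 (0.00171). ENO1 was at -0.24 with an adjusted p of 0.00513, PGK1 at -0.23 (0.0174), TPI1 at -0.19 (0.0136) and PKM at -0.19 (0.0141), all by limma. With no filter on low values GAPDH did not pass (adjusted p = 0.0998, limma), and 6 members were lower. The calls of PGK1, TPI1 and PKM turned on single libraries. Without control ES replicate 2 only 4 members were lower, and PGK1, TPI1 and PKM had adjusted p-values of 0.0631, 0.0708 and 0.1 (limma). Without FDX1-OE ES replicate 1, which is the higher of its pair for HK2 and PFKP, these 2 kinases passed (0.0229 and 0.0446, limma), while PGK1 (0.0553), TPI1 (0.0711) and PKM (0.0504) did not. PGK1 was also lost without FDX1-OE ES replicate 2 (0.082) or control ES replicate 1 (0.0675), and PKM without FDX1-OE ES replicate 2 (0.0599). RLE scaling gave 8 members lower, with 963 genes higher and 1273 lower beside 1331 and 763 as deposited.

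In DMSO no member passed the test between FDX1-OE and control cells, by limma on log2(FPKM + 1) or on read counts recovered from the FPKM steps. Of all genes 0.428% were higher and 0.0816% lower. The members' median log2 difference was -0.03, and their values ran from -0.14 for PGK1 to 0.09 for PFKP. PGK1 was the only member with an unadjusted p under 0.05 in limma, with a p of 0.0357, an adjusted p of 0.62 and a 95% interval of -0.27 to -0.01. For GAPDH the interval was -0.08 to 0.12 and for LDHA -0.14 to 0.14.

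The ES response differed between the 2 kinds of cell for GAPDH and LDHA. LDHA fell by 0.49 more on the log2 scale in FDX1-OE cells than in control cells (SE 0.09, adjusted p = 0.0161, limma), and for GAPDH the difference was -0.31 ± 0.06 (adjusted p = 0.0244, limma). The next members, PGAM1 at -0.26 and ENO1 at -0.21, did not pass, with limma adjusted p-values of 0.0539 and 0.0814. HK2 and PGK1, the members with the largest change in control cells, were at -0.16 and -0.10, with 95% intervals of -0.41 to 0.09 and -0.28 to 0.09. Of all genes tested 1.05% had a lower and 3.25% a higher response in FDX1-OE cells, and among those with a mean of at least 20 FPKM 2.65% were lower and 2.68% higher.

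Both of these calls were close to the threshold. The call of GAPDH was lost without FDX1-OE ES replicate 1 (adjusted p = 0.0786, limma), FDX1-OE DMSO replicate 1 or 2 (0.0934 and 0.104), control ES replicate 2 (0.111) or control DMSO replicate 1 or 2 (0.0661 and 0.0622). That of LDHA was lost without FDX1-OE ES replicate 1 (0.0686), FDX1-OE DMSO replicate 2 (0.0682), control ES replicate 2 (0.0615) or control DMSO replicate 2 (0.0613). The difference itself moved little, between -0.34 and -0.28 for GAPDH and between -0.57 and -0.41 for LDHA. RLE scaling gave 4 members with a lower response, adding PGAM1 (0.0307) and ENO1 (0.042, limma), and 244 genes higher and 270 lower beside 319 and 103 as deposited. The comparisons share libraries, since each group enters more than 1 of them, so their values are set side by side and not as independent evidence.

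For 3 steps another isoform was expressed at a level close to that of the member, and the balance differed between groups. LDHB, the lactate dehydrogenase subunit that favours pyruvate formation, had 528 and 592 FPKM in FDX1-OE ES libraries, 757 and 776 in FDX1-OE DMSO, 631 and 667 in control ES, and 816 and 739 in control DMSO. The ratio of LDHA to LDHB was 0.682 and 0.652 in FDX1-OE ES libraries, 0.807 and 0.842 in FDX1-OE DMSO, 0.786 and 0.828 in control ES, and 0.786 and 0.842 in control DMSO. The FDX1-OE ES libraries alone stood apart, below the other 6. GENCODE 29 has 33.4% of the exonic bases of LDHB shared with another gene on the same strand, so its level is uncertain.

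PFKL, the liver-type phosphofructokinase, had 58.0 and 52.8 FPKM in FDX1-OE ES libraries, 54.2 and 48.5 in FDX1-OE DMSO, 59.9 and 49.3 in control ES, and 49.5 and 54.0 in control DMSO, and did not pass the test in either kind of cell. The ratio of PFKP to PFKL was 0.918 and 0.902 in FDX1-OE ES libraries, 1.44 and 1.54 in FDX1-OE DMSO, 0.945 and 1.15 in control ES, and 1.41 and 1.35 in control DMSO. All ES libraries were lower than all DMSO libraries. HK2 and HK1 were nearly equal, with a ratio of 1.03 and 0.964 in FDX1-OE ES libraries, 1.11 and 1.07 in FDX1-OE DMSO, 0.916 and 0.881 in control ES, and 1.13 and 1.15 in control DMSO. HK1, the housekeeping hexokinase, fell with ES in FDX1-OE cells (log2 change -0.52, adjusted p = 8.25e-05, limma) and did not pass the test in control cells, where its log2 change was -0.16.

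ALDOC, the brain-type aldolase, moved in the opposite direction to the 9 enzymes that fell. It had 24.6 and 22.5 FPKM in FDX1-OE ES libraries, 8.40 and 8.02 in FDX1-OE DMSO, 18.2 and 16.5 in control ES, and 6.69 and 7.76 in control DMSO. Its log2 change with ES was 1.41 ± 0.08 (SE) in FDX1-OE cells, with an adjusted p of 6.59e-07 by limma, and 1.16 ± 0.08 in control cells (6.46e-06), and no ES library overlapped a DMSO library. In ES it was higher in FDX1-OE than in control cells by 0.42 (adjusted p = 0.00572, limma), a call lost without FDX1-OE ES replicate 1 (0.052) or control ES replicate 2 (0.0564). Per length ALDOC was listed at 11.1 to 13.1 times ALDOA in FDX1-OE ES libraries, 4.32 to 4.50 times in FDX1-OE DMSO, 9.33 to 10.8 times in control ES and 3.02 to 4.74 times in control DMSO, with the uncertainty of ALDOA given above.

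**Figure D4:**
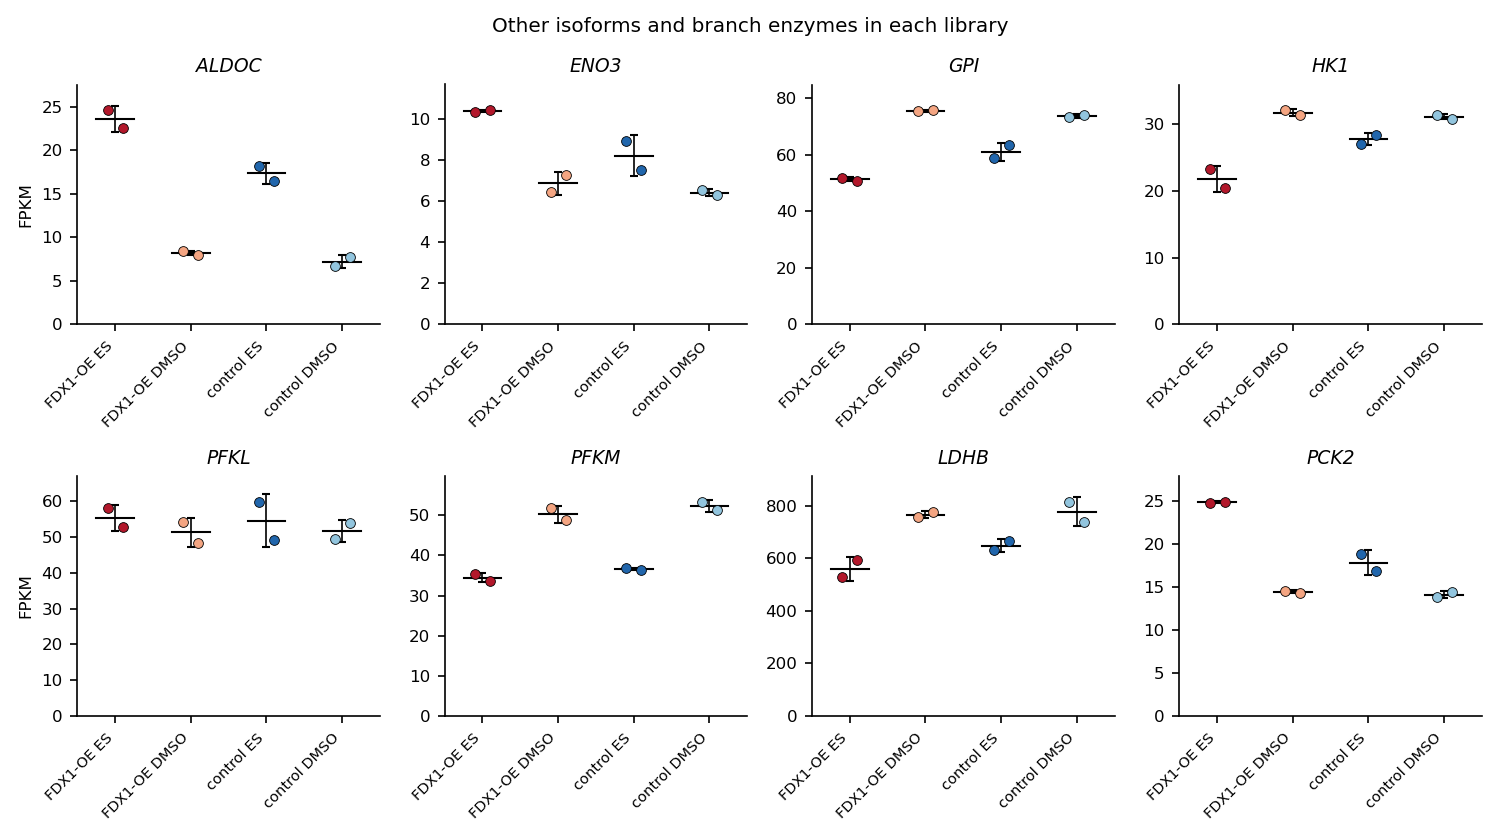
FPKM (vertical axes, from 0) of 6 other isoforms, the isomerase GPI and the branch enzyme PCK2 in the 2 libraries of each group, with the group mean as a line and its SD as error bars. ALDOC lies at 16.5 to 24.6 FPKM in the 4 ES libraries and at 6.69 to 8.40 in the 4 DMSO libraries, while GPI, PFKM and LDHB lie lower in ES than in DMSO.

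Of the 8 other isoforms and partner enzymes tested, 2 rose and 4 fell with ES in FDX1-OE cells, where 37.0% of all genes tested were higher and 19.2% lower. In control cells 2 rose and 3 fell, beside 25.5% higher and 12.9% lower among all genes. GPI, the isomerase between HK2 and PFKP, had 51.8 and 50.9 FPKM in FDX1-OE ES libraries, 75.3 and 75.8 in FDX1-OE DMSO, 58.8 and 63.3 in control ES, and 73.3 and 74.3 in control DMSO. It fell like the members, by 0.55 on the log2 scale in FDX1-OE cells (adjusted p = 1.41e-05, limma) and by 0.27 in control cells (0.00276). PFKM, the muscle-type phosphofructokinase, fell by 0.53 in FDX1-OE cells and by 0.50 in control cells. ENO3, the muscle enolase, rose by 0.54 in FDX1-OE cells (adjusted p = 0.000371, limma) and by 0.31 in control cells (0.0155), where the call was lost without control ES replicate 1 (0.125) or control DMSO replicate 2 (0.0788). ENO1 still held 97.2 to 98.8% of the FPKM of the enolases in every library.

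Carriers of glucose and lactate mostly did not pass the test. Of 6 tested, 1 fell in FDX1-OE cells, the monocarboxylate carrier SLC16A7 at a log2 change of -0.24 (adjusted p = 0.038, limma), and 1 in control cells, SLC2A6 at -0.29 (0.0331). Of all genes tested 19.2% were lower in FDX1-OE and 12.9% in control cells, shares near these counts. Neither call held without single libraries: that of SLC16A7 was lost without FDX1-OE ES replicate 1 (0.149) or 2 (0.0785) or FDX1-OE DMSO replicate 2 (0.27), and that of SLC2A6 without control ES replicate 2 (0.215) or control DMSO replicate 1 (0.0626) or 2 (0.169). SLC2A1, the main glucose carrier here, had 36.3 and 31.4 FPKM in FDX1-OE ES libraries, 36.5 and 34.3 in FDX1-OE DMSO, 36.3 and 34.0 in control ES, and 36.7 and 35.9 in control DMSO. Its ES and DMSO libraries overlapped in both kinds of cell, and all lay within a narrow range.

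Of 11 regulators of the flux at phosphofructokinase and at pyruvate entry to mitochondria that were tested, 5 rose with ES in FDX1-OE cells and 3 in control cells, and none fell. These shares of higher genes are near those of all genes tested, 37.0% in FDX1-OE and 25.5% in control cells. PFKFB4, which makes the activator of phosphofructokinase, changed by 0.41 (adjusted p = 0.00438, limma) in FDX1-OE cells from a low level, with 1.37 and 1.32 FPKM in ES libraries and 0.727 and 0.787 in DMSO libraries. MPC1 and MPC2, the subunits of the mitochondrial pyruvate carrier, changed by 0.29 and 0.30 in FDX1-OE cells and by 0.24 and 0.22 in control cells. These calls depend on the scaling: with RLE scaling 1 of 11 rose in each kind of cell, and MPC1 and MPC2 were no longer called in FDX1-OE cells (adjusted p = 0.0764 and 0.0567, limma) or in control cells (0.0904 and 0.125). Of all 9777 genes tested with that scaling, 2354 were higher in FDX1-OE cells and 1682 in control cells. Without FDX1-OE ES replicate 1 the count in FDX1-OE cells was 3, and without control ES replicate 1 or control DMSO replicate 1 that in control cells was 1.

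Enzymes of branches from glycolysis moved in both directions. Of 14 tested, 3 rose and 7 fell with ES in FDX1-OE cells, and 3 rose and 8 fell in control cells, or 5 without control ES replicate 2 or control DMSO replicate 1 or 2. Over all genes tested 37.0% were higher and 19.2% lower in FDX1-OE cells, and 25.5% and 12.9% in control cells. PCK2, the mitochondrial enzyme that makes phosphoenolpyruvate from oxaloacetate, had 24.8 and 24.9 FPKM in FDX1-OE ES libraries, 14.6 and 14.3 in FDX1-OE DMSO, 18.9 and 16.8 in control ES, and 13.8 and 14.4 in control DMSO. It rose by 0.75 on the log2 scale in FDX1-OE cells (adjusted p = 8.33e-06, limma), and H6PD, the hexose phosphate dehydrogenase of the endoplasmic reticulum, by 0.63 (6.31e-05) there and by 0.37 in control cells (0.00367). GPD1L, a glycerol phosphate dehydrogenase, fell by 0.53 and PGM1, a phosphoglucomutase that links glycogen to glycolysis, by 0.42 in FDX1-OE cells. In control cells GPD1L fell by 0.48, RPIA, the ribose phosphate isomerase, by 0.37 and G6PC3, a glucose phosphatase, by 0.33.

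Genes of the factors that act on glycolysis moved in both directions, with 6 of 13 tested rising and 2 falling in FDX1-OE cells and 3 rising and 3 falling in control cells. These shares are near those of all genes tested, which were 37.0% higher and 19.2% lower in FDX1-OE cells and 25.5% and 12.9% in control cells. MYC had 122 and 132 FPKM in FDX1-OE ES libraries, 186 and 191 in FDX1-OE DMSO, 137 and 155 in control ES, and 163 and 182 in control DMSO. It fell by 0.57 on the log2 scale in FDX1-OE cells (adjusted p = 9.98e-05, limma) and by 0.24 in control cells (0.0265), where the call was lost without control ES replicate 1 (0.189) or control DMSO replicate 2 (0.19). TXNIP and its relative ARRDC4, which restrain glucose uptake, rose by 0.48 and 0.41 in FDX1-OE cells. HIF1A rose by 0.38 in FDX1-OE cells (adjusted p = 0.00115, limma) and by 0.43 in control cells (0.00117), and EGLN1, the prolyl hydroxylase that marks HIF1A for removal, by 0.40 in FDX1-OE and 0.35 in control cells, where the call was lost without control DMSO replicate 1 (0.0527). EGLN2 fell by 0.37 in control cells. Without control DMSO replicate 1, 1 gene of this list rose in control cells.

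Of 12 hypoxia targets outside glycolysis that were tested, 6 rose and 1 fell with ES in FDX1-OE cells, and 4 rose and 2 fell in control cells. Of all genes tested 37.0% were higher and 19.2% lower in FDX1-OE cells, and 25.5% and 12.9% in control cells, so the counts in control cells are near those shares. BNIP3L, a mitophagy receptor, rose by 0.66 on the log2 scale in FDX1-OE cells (adjusted p = 5.49e-05, limma) and by 0.49 in control cells (0.000875). VEGFA, a vascular growth factor, rose by 0.57 in FDX1-OE cells, and KDM3A, a histone demethylase, by 0.31. BNIP3 rose by 0.45 in control cells. DDIT4 and CITED2 fell by 0.29 and 0.25 in control cells, and both calls were lost without control ES replicate 1 (adjusted p = 0.0688 and 0.0613, limma) or replicate 2 (0.135 and 0.14). With RLE scaling 4 of the 12 fell in FDX1-OE cells and 2 rose in control cells. Of all 9777 genes tested with that scaling, 3107 were lower in FDX1-OE cells and 1682 higher in control cells, shares near these counts. The median log2 change of the 12 genes in FDX1-OE cells was 0.26, beside -0.44 for the 10 enzymes and 0.09 for all genes tested.

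**Figure D5:**
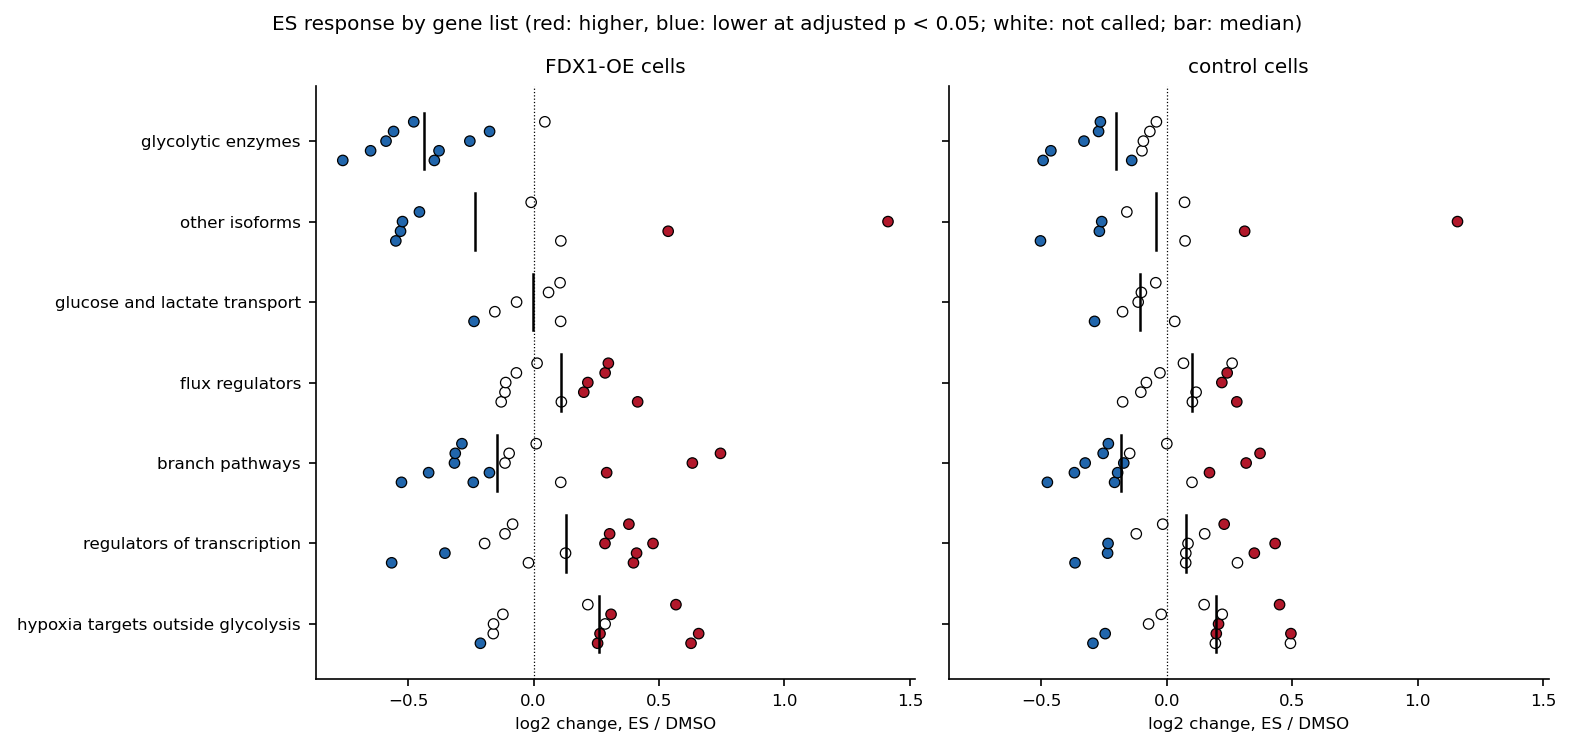
Log2 change with ES relative to DMSO (horizontal axes) for the enzymes and the 6 further lists, in FDX1-OE cells (left) and control cells (right); each point is a gene, red for higher, blue for lower at an adjusted p below 0.05 and white where not called, and bars are medians. The enzymes lie to the left of 0 apart from ALDOA in FDX1-OE cells, and the hypoxia targets lie on both sides with their median to the right.

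Over these 6 lists together, 64 genes were tested. Between FDX1-OE and control cells 8 were higher and 5 lower in ES, shares near the 13.6% higher and 7.78% lower of all genes tested. These counts were 1 and none without control ES replicate 2 and 1 and 2 without FDX1-OE ES replicate 1. Without FDX1-OE ES replicate 2, 5 were higher, and without FDX1-OE DMSO replicate 1 or 2, 3 were lower. In DMSO none was called by limma, with 5 at an unadjusted p under 0.05. Among those called in ES, HK1 was lower in FDX1-OE cells by 0.33 and GPI by 0.25 on the log2 scale, calls lost without control ES replicate 2 (adjusted p = 0.0539 and 0.0811, limma), while PCK2 was higher by 0.46 (0.00125).

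For the 3 members with the widest range of group means, the genes with the most similar pattern over the 8 libraries were sought among all genes tested, by the root mean square difference of centred log2(FPKM + 1). For PGK1 they were NAA10, a catalytic subunit of a protein acetyltransferase, at 0.0276, ESYT1 at 0.0305 and PDCD2L at 0.0404. For LDHA they were PA2G4, at 0.0506, WDR12, a ribosome biogenesis factor, at 0.0523 and UTP14A, a factor of the small ribosomal subunit, at 0.0565. For HK2 they were YWHAG, CLUH and TBL3, at 0.0524, 0.0537 and 0.0539. Each of these was closer than the nearest other member, which lay at 0.0848 for PGK1, 0.128 for LDHA and 0.078 for HK2. These genes were picked from the 9805 tested, the members aside, and the nearest member from the 10 enzymes alone. A closer match among so many more genes therefore says nothing particular about the members.

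Processed pseudogenes can take or give reads of these enzymes. GENCODE 29 names 62 for GAPDH, 13 for PGAM1, 6 for LDHA, 5 for PKM, 4 each for TPI1 and ENO1, and 2 or fewer for the others. How reads that match several places were counted is also not given. The levels of GAPDH and PGAM1 are to that extent uncertain.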

How the data were processed

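RNA-seq values of 8 SUDHL-4 libraries were used as deposited. The authors deposited FPKM for 15597 genes, the unit being read from the values since the file headers state none. Per the submitters' processing notes, HISAT2, HTSeq, R 3.2.0 and the build hg19 were used, with roles that the sources used here do not give. The FPKM steps gave whole reads, within 0.02 read, for 99.968% of genes, and library totals of 33435438 to 35883528 reads, of which the listed genes held 99.90 to 99.92%. On simulated libraries all 8 totals were recovered, but the reads of only 94.0% of genes were recovered exactly in every library. The recovered reads came to 99.96% of those simulated.

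Two-sided tests on log2(FPKM + 1) used limma 3.58.1 (R 4.3.3), fitting 4 group means with a mean trend. P-values were adjusted by Benjamini-Hochberg over the 9805 genes that reached 1 FPKM in 2 or more libraries, and all 10 members were among them. On data simulated for ES against DMSO in FDX1-OE cells, over 9805 genes, 42% of changes of 0.3 on the log2 scale, 78% of 0.5 and 98% of 1 were recovered, with 4 false calls. Only 50 genes were changed at each size, while 3632 were called higher and 1878 lower in the data. The adjustment depends on how many genes change, so these rates do not carry over to that comparison. Intervals are 95% intervals from that fit. With 2 libraries on each side, the smallest p an exact permutation test allows is 0.33, so none was run. Whether replicates are separate cultures is not labelled, and p-values measure only the spread between these libraries, which may be technical. The members and lists were chosen with earlier results of these data known. All members are named in every comparison, and of each further list at most 4 called genes per comparison, those with the largest change, with the other isoforms of the members and GPI beside them. Alternatives changed the pseudocount, the filter, the scaling, the test (voom on recovered reads), the replicate block, the libraries fitted and the mean trend, and left out each library in turn. Replicate numbers were not taken as pairs. For 1 gene of the further lists the result is not reported here.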

Additional observations from a re-analysis of the deposited data

Results flagged for a closer look

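The response to ES differed between FDX1-OE and control cells, by the test of the difference itself in limma, for 5 of the genes described. These were FDX1, 2 of the 10 members, both lower, and 2 of the 64 genes tested of the further lists, both higher. Of all genes tested 3.25% were higher and 1.05% lower, so the count of the further lists is near that share. FDX1 itself had a log2 difference of 0.38 (adjusted p = 0.0469, limma), and the call was lost without any library but control DMSO replicate 2, with adjusted p-values between 0.0657 and 0.149. LDHA had a log2 difference of -0.49 and GAPDH of -0.31, both lower in FDX1-OE cells. PCK2 had a difference of 0.43 (adjusted p = 0.0331, limma) and DDIT4, a stress-induced inhibitor of mTOR signalling, of 0.56 (adjusted p = 0.0467, limma). DDIT4 had 55.7 and 47.1 FPKM in FDX1-OE ES libraries, 46.0 and 39.2 in FDX1-OE DMSO, 40.1 and 38.1 in control ES, and 51.5 and 45.1 in control DMSO. The call of PCK2 was lost without any library but control ES replicate 1, with adjusted p-values between 0.0711 and 0.119. That of DDIT4 was lost without any library but FDX1-OE ES replicate 2 and FDX1-OE DMSO replicate 1, with adjusted p-values between 0.0527 and 0.155.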

How the results depend on the processing

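The 9 members lower with ES in FDX1-OE cells stayed 9 under every alternative but the fit without FDX1-OE DMSO replicate 1, which gave 8. Some other counts, in this comparison and in others, moved by over 1.5 times. In FDX1-OE cells RLE scaling took all genes from 3632 to 2354 higher and from 1878 to 3107 lower. Depth limits ALDOA, whose values rest on 111 to 165 reads. The replicate block, with replicate numbers from the titles, left the members' counts at 9, 6, 7, 0 and 2. The same-numbered libraries shared only a number, with correlations of their deviations from -0.18 to 0.181 over 6 pairs of groups. In the lists the block gave 2 hypoxia targets lower in FDX1-OE cells with ES and 1 gene lower in the difference of responses. The causes of the changes below were not tested.

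With RLE scaling all genes were 2354 higher and 3107 lower (ES in FDX1-OE cells), 2124 lower (ES in control cells), 1273 lower (FDX1-OE against control in ES) and 270 lower (difference of responses), and 4 members were lower in that difference. In FDX1-OE cells 3 carriers fell, 1 flux regulator rose and 2 fell, 5 regulators of transcription and 4 hypoxia targets fell. In control cells 3 carriers fell, 1 flux regulator rose and 1 fell, and 2 hypoxia targets rose. Over the 6 lists 12 genes were lower between cells in ES, and 1 rose and 2 fell in the difference. ALDOA turned to -0.0498 with ES in FDX1-OE cells.

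Without a filter, 2 genes were higher and 0 lower between cells in DMSO, 158 higher and 18 lower in the difference, and 0 members were lower there. Then 6 members were lower between cells in ES, GAPDH being lost (adjusted p = 0.0998, limma). In the lists, 1 other isoform rose with ES in control cells, 3 carriers rose and 0 fell in FDX1-OE cells, 0 carriers and 0 hypoxia targets fell in control cells, 2 genes were lower between cells in ES and 0 rose in the difference. A mean of at least 5 FPKM left 7087 genes tested, with 2323 higher with ES in FDX1-OE cells and 849 between cells in ES. With that filter 0 carriers were lower in FDX1-OE cells and 1 list gene was lower in the difference. A pseudocount of 0.1 gave 165 higher and 57 lower in the difference and 1 list gene higher. Voom gave 70 genes higher between cells in DMSO, 245 lower in the difference, 2 carriers and 1 flux regulator lower in control cells, and 8 and 3 list genes lower between cells in ES and in the difference. Without a mean trend 1 member and 29 genes were lower and 0 list genes higher in the difference, and 1 hypoxia target fell in control cells. The fit to 4 libraries gave 14 genes lower between cells in DMSO, 0 carriers lower in FDX1-OE cells, 2 hypoxia targets higher in control cells and 3 list genes lower between cells in ES.

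By reads instead of FPKM, HK2 held 52.2, 54.5, 49.6 and 55.5% of hexokinase in FDX1-OE ES, FDX1-OE DMSO, control ES and control DMSO libraries, where FPKM gave 49.9, 52.2, 47.3 and 53.3%. For PFKP the read shares in that order were 31.6, 37.7, 33.8 and 35.5%, where FPKM gave 35.9, 42.9, 38.3 and 40.7%. For LDHA they were 46.0, 51.3, 50.8 and 51.0%, where FPKM gave 40.0, 45.2, 44.6 and 44.9%. The members' share of all reads was 1.25, 1.65, 1.51 and 1.66%.

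Leaving out 1 library in turn gave 809 to 1281 genes lower with ES in control cells. Between cells in ES it gave 4 to 7 members lower, 531 to 1247 genes higher and 217 to 697 lower, and between cells in DMSO 15 to 59 higher and 0 to 13 lower. In the difference of responses it gave 0 to 2 members lower, 66 to 476 genes higher and 6 to 154 lower. In FDX1-OE cells 0 to 1 carriers fell, 3 to 5 flux regulators rose and 1 to 2 hypoxia targets fell. In control cells 1 to 2 other isoforms rose, 0 to 1 carriers fell, 1 to 3 flux regulators rose and 0 to 1 fell, 5 to 8 branch enzymes fell, 1 to 3 regulators of transcription rose, and 2 to 4 hypoxia targets rose and 0 to 2 fell. Over the 6 lists it gave 1 to 8 genes higher and 0 to 6 lower between cells in ES, and 0 to 2 higher and 0 to 2 lower in the difference. Uncalled values near 0 changed sign: ALDOA ranged from -0.237 to 0.049 with ES in control cells (0.0178 without control ES replicate 2), from -0.167 to 0.119 between cells in DMSO (0.0169 without FDX1-OE DMSO replicate 2) and from -0.004 to 0.282 in the difference. Between cells in DMSO HK2 ranged from -0.0718 to 0.0105, ENO1 from -0.0505 to 0.001 and LDHA from -0.0475 to 0.0488 (-0.0221 without control DMSO replicate 2).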
